A study of Homo sapiens with 6 samples.

Results

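The genes described here are 32 transcriptional targets of p53, read in luciferases-expressing HepG2 cells with and without sedanolide. They are a gene list, matched by symbol to the Ensembl genes of the deposited count table, and all 32 were found there once each among 61541 genes and 2 reporters. After the filter on low counts, 31 of the 32 were tested together with all other features (14104 in all). PMAIP1, which encodes the pro-apoptotic protein NOXA, was not tested, as it had 1 count in control 2 and 0 in each of the other 5 libraries.

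HepG2 is a human hepatoblastoma line. The cells used here carry 2 beetle luciferases on an artificial chromosome: SLR3, driven by antioxidant response elements (AREs) and a thymidine kinase promoter, and ELuc, driven by the thymidine kinase promoter alone. The control group (n = 3 libraries) is labelled only as control, and the sedanolide group (n = 3 libraries) received 100 μM sedanolide, a phthalide from celery, for 24 h. Both groups carry both reporters, and the study asked how the transcriptome of these cells differs after exposure to this activator of the KEAP1–NRF2 pathway. Whether libraries within a group came from separate cultures is not stated, so the p-values measure the spread between these samples, which may be technical.

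p53 is a transcription factor that is kept low by the ubiquitin ligase MDM2 and stabilized after DNA damage and other stress. It binds a pair of similar half-sites in or near its target genes and raises the transcription of genes for cell cycle arrest, apoptosis, DNA repair and metabolism. Among the targets are its own inhibitors, such as MDM2 itself, which close a feedback loop.

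Some members hold matches to the p53 binding motif close to their transcription starts. RefSeq promoter windows (GRCh38.p14), reaching from 250 bases before to 50 bases after each start, were available for 26 of the 32 members. A pair of p53 half-sites, separated by a spacer of at most 13 bases and with at most 2 mismatches outside the invariant C and G, was found in the windows of 5 of the 26 members (19.2%), against 3.62% of 27305 genes with a window. A single half-site of 10 bases without a mismatch was found in 7 of the 26 (26.9%), against 8.06% of those genes. The consensus is its own reverse complement, so both strands were covered. The 5 pairs, the best match of each of these members, are given with half-sites in capitals and spacer or flanking bases in lower case. Each is written 5′ to 3′ on the strand of its gene.
MDM2: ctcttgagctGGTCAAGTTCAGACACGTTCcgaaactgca
DDB2: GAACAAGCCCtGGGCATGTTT
FDXR: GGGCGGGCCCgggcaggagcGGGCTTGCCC
AEN: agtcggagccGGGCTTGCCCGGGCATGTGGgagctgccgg
FAS: GGACAAGCCCTGACAAGCCA

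The capitals of the MDM2 pair stand at chr12:68808923-68808942 (+ strand), in an intron of the canonical transcript, and the pair has 2 mismatches. The DDB2 pair at chr11:47214979-47214999 (+ strand) lies 5 to 25 bases after a RefSeq transcription start and has 0 mismatches. It falls in the untranslated part of an exon of the canonical transcript. The FDXR pair at chr17:74872996-74873025 (− strand) ends 2 bases before a transcription start and has a spacer of 10 bases. It has 2 mismatches, both at the center of its first half-site. The AEN pair at chr15:88621306-88621325 (+ strand) lies before the start and outside the transcript. The FAS pair at chr10:88991309-88991328 (+ strand) lies in an intron of the canonical transcript that is an exon of another. The AEN and FAS pairs have 2 mismatches each. The windows of CDKN1A, BBC3, BAX and GDF15 held no such pair, which says only that these letters are not in these windows. The core of the ARE, TGACNNNGC on either strand, was found in 8 of the 26 windows (30.8%), against 16.1% of all genes. These matches describe sequence and were not tested for binding in these cells.

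Total expected counts ranged from 16420258 to 26714853 per library, and the members together took 0.193% to 0.227% of each. SLR3 had 267 to 344 counts in the control libraries and 1294 to 1782 in the sedanolide libraries. ELuc had 309 to 440 counts in the control libraries and 205 to 261 in the sedanolide libraries. These reporter counts are not scaled to library size. All 8 hepatocyte markers were detected, from TTR with at least 554 counts per library to AFP with up to 435339. Of 8 markers of other cell types, VWF had 0 counts in all libraries, which allows up to 3 counts in each. COL1A1, COL3A1 and PTPRC had 0 to 3 counts per library, PECAM1 and CD14 had 36 to 137, and the epithelial markers EPCAM and KRT19 had 261 to 2254. On component 1 of a principal component analysis, which held 56.1% of the variance, the libraries did not separate by condition. Sedanolide 3 stood with control 1 and control 2, whereas control 3 stood with sedanolide 1 and sedanolide 2. The share of counts from mitochondrial genes was 1.43% to 2.15% in the former set and 4.23% to 5.22% in the latter. This split was found in the data and is not a batch that the labels name.

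No p53 target passed the thresholds after sedanolide, and the members went in both directions. Of the 31 tested members, 0 were called higher (51 of all features, 0.362%) and 0 were called lower (44 of all features, 0.312%), at a false discovery rate (FDR) of 0.05 and a fold change of 1.5 with edgeR's quasi-likelihood test. At an unadjusted p under 0.05, 1 member was higher, GDF15, and 0 were lower, beside 5.35% and 6.57% of all features tested. DESeq2 on the same genes also called 0 members, with GDF15 higher and TP53INP1 lower at an unadjusted p under 0.05, beside 6.17% and 6.24% of all features. In GDF15 all sedanolide libraries lay above all control libraries, which 8.69% of all features did, and in no member did all lie below, which 9.66% of all features did. The log2 fold change was above 0 in 13 members and below 0 in 18, with a median of -0.10 beside 0.01 over all features. Within both sets of libraries on component 1, 16 members were lower with sedanolide and 9 were higher. Of all 14104 features, 4773 were lower and 5162 were higher within both sets, and this was not tested. The adjusted p of the members ranged from 0.186 to 0.960.

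The data also bound how far the members could have moved. The 95% interval of the fold change left out a 2-fold rise in all 31 tested members and a 2-fold fall in 26. It left out a 1.5-fold rise in 25, a 1.5-fold fall in 15 and both in 12. Of all 14104 features, the interval left out a 2-fold rise in 12634 and a 2-fold fall in 11894. A 1.5-fold rise was left out in 9042 of them, a 1.5-fold fall in 8896 and both in 5550. The members whose interval reached past a 2-fold fall were BBC3, TP53INP1, BTG2, TNFRSF10B and SUSD6. Their SEs were 0.28 to 0.51 on the log2 scale, beside a median SE of 0.20 over the members. In bulk RNA, fewer cells that express a gene and less RNA per cell cannot be told apart.

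**Figure D1:**
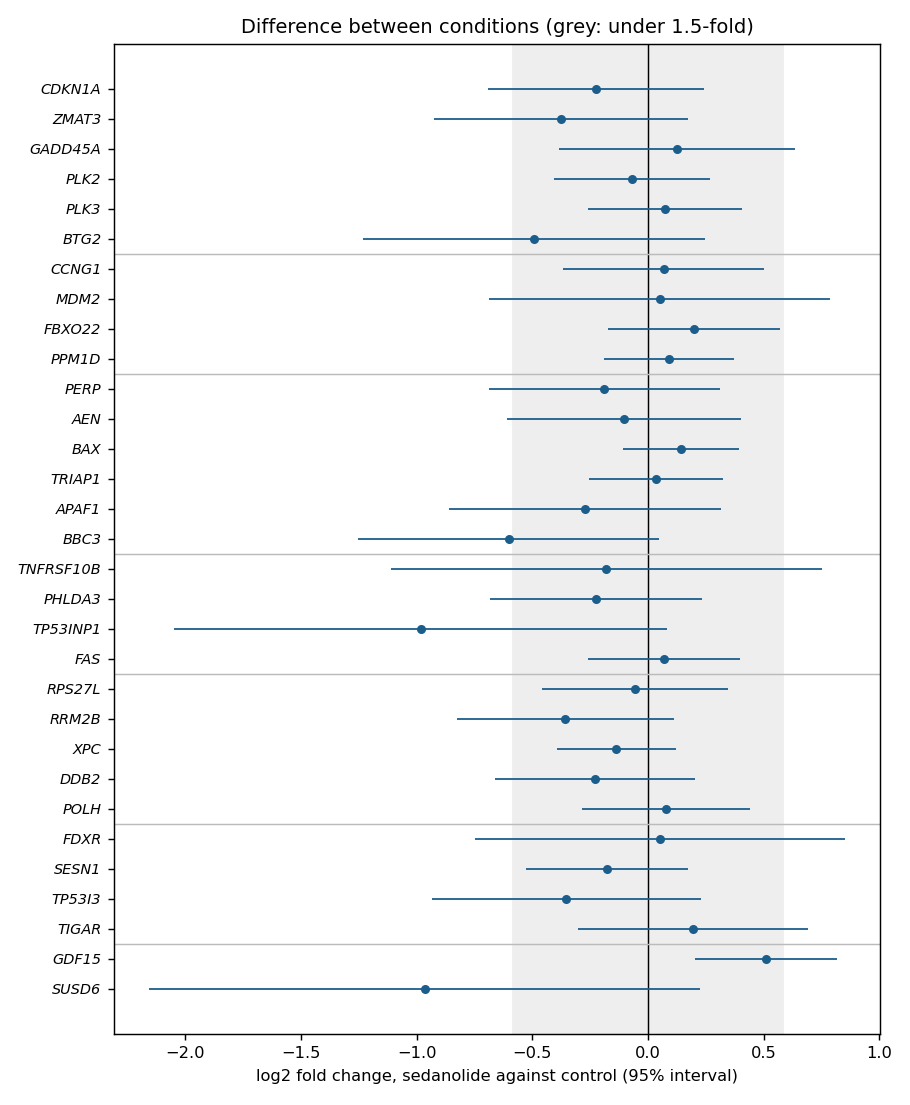
Log2 fold change of each tested p53 target, sedanolide against control, as a point with its 95% interval from edgeR's quasi-likelihood fit. Genes are grouped by role between the grey lines. From the top these are cell cycle arrest, feedback on p53, and the mitochondrial arm of apoptosis with PERP and AEN. Below them are death receptors and signalling, DNA repair and nucleotide supply, metabolism and redox, and GDF15 with SUSD6. The interval of GDF15 alone leaves out 0, and the grey band marks changes under 1.5-fold.

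GDF15, a secreted cytokine of the TGF-beta superfamily that is induced by p53 and by other stress pathways, had the largest positive difference of the list. Its normalized expression was 221, 217 and 202 CPM (counts scaled to the normalized library size) in controls 1 to 3 and 315, 261 and 335 CPM in sedanolide 1 to 3. All 3 sedanolide libraries were above all 3 controls, and the controls lay close together. The mean was 213 ± 9.80 CPM (SD, n = 3) in control and 304 ± 38.2 CPM (SD, n = 3) in sedanolide cells, a 1.42-fold difference (95% interval 1.15 to 1.76, log2 fold change 0.51, SE 0.13). With an adjusted p of 0.186 in edgeR's quasi-likelihood test it did not pass the FDR threshold, and the fold stayed under 1.5. DESeq2 gave an adjusted p of 0.0257 and a log2 fold change of 0.51, which again was under 1.5-fold. Within the set of control 1, control 2 and sedanolide 3 the log2 difference was 0.61, and within the other set it was 0.50. The first value rests on sedanolide 3 alone for its condition, and the second on control 3 alone. In the TPM of the second deposited table, sedanolide 2 (330.1 TPM) was below control 2 (332 TPM), so the groups overlapped there, and the difference on the log2(TPM + 1) scale was 0.39 with a limma adjusted p of 0.453.

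GDF15 lies at chr19:18374731-18389176 (+ strand, GRCh38) and was also the most abundant member per length. Its mean in control cells was 301 ± 32.8 TPM (SD, n = 3), followed by CCNG1 with 242 ± 34.7 TPM, RPS27L with 223 ± 6.67 TPM and BAX with 161 ± 20.2 TPM. The distance between CCNG1 and RPS27L was smaller than the spread of CCNG1. At the other end stood PLK2 with 4.97 ± 0.80 TPM, PLK3 with 3.64 ± 0.46 TPM and TIGAR with 3.51 ± 2.29 TPM, which do not differ beyond the spread of TIGAR. BTG2 and PMAIP1 are not in this table.

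**Figure D2:**
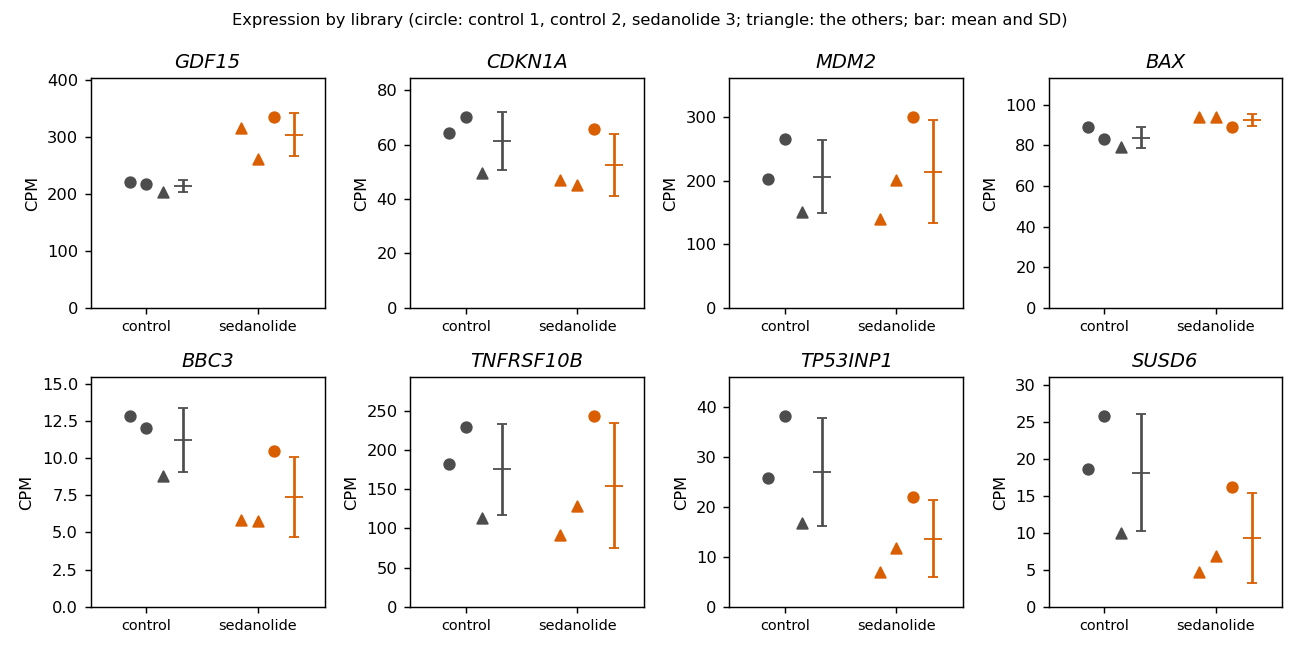
Normalized expression (CPM, axis from 0) of 8 p53 targets in each of the 6 libraries, with the mean and SD of 3 libraries per group beside the points. In GDF15 the sedanolide points (261 to 335 CPM) lie above the control points (202 to 221 CPM), whereas in the other 7 genes the groups overlap. In each gene shown except BAX, the circles lie above the triangles of the same condition.

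The feedback genes differed little in their means. MDM2, which marks p53 for degradation and is the most used readout of p53 activity beside CDKN1A, had 202, 267 and 152 CPM in controls 1 to 3 and 140, 202 and 301 CPM in sedanolide 1 to 3. The highest and the lowest value were both in sedanolide libraries, and the groups overlapped throughout. The fold was 1.04 (95% interval 0.62 to 1.73), with an edgeR adjusted p of 0.958. CCNG1, a cyclin that brings a phosphatase to MDM2, had 326 ± 50.6 CPM in control and 342 ± 65.4 CPM in sedanolide cells. PPM1D, the phosphatase that switches off p53 and its kinases, had 33.3 ± 2.84 and 35.5 ± 2.43 CPM. FBXO22, the substrate receptor of a ubiquitin ligase that acts on p53, had 84.9 ± 12.95 and 97.5 ± 12.6 CPM and a log2 fold change of 0.20. The log2 fold change was above 0 in all 4 in the counts, but in the TPM table it was -0.09 for CCNG1 and -0.03 for PPM1D, and for MDM2 it was -0.28 without sedanolide 3 and -0.13 without control 3.

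The genes of cell cycle arrest gave no common direction, with 2 above 0 and 4 below. CDKN1A, the inhibitor p21 of cyclin-dependent kinases, had 64.3, 70.4 and 49.6 CPM in controls 1 to 3 and 46.9, 45.1 and 65.7 CPM in sedanolide 1 to 3. Control 1, control 2 and sedanolide 3 were high and the other 3 libraries were low. The mean of the sedanolide cells was 0.86 of that of control cells (95% interval 0.62 to 1.18), with an edgeR adjusted p of 0.692. Without sedanolide 3 the log2 fold change of CDKN1A was -0.42, and with a term for the split of the libraries it was -0.07, so this 1 library moved it by more than any other alternative. ZMAT3, a zinc finger protein that binds RNA, had 40.8 ± 8.25 CPM in control and 31.5 ± 8.77 CPM in sedanolide cells (log2 fold change -0.38). BTG2, an antiproliferative cofactor of mRNA deadenylation, was low, with 38 to 100 counts per library, and had 3.21 ± 0.90 and 2.29 ± 0.79 CPM (log2 fold change -0.49). GADD45A, a stress sensor that binds cell cycle kinases, had a log2 fold change of 0.13. The polo-like kinases PLK2 and PLK3 had -0.07 and 0.07, and no gene of this group had an edgeR adjusted p below 0.580.

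None of the 6 tested genes grouped with the mitochondrial arm of apoptosis passed the test, with log2 fold changes from -0.60 to 0.14. The group also holds PERP and AEN, which are apoptosis genes outside that arm. BBC3, the BH3-only protein PUMA, had 12.8, 12.0 and 8.76 CPM in controls 1 to 3 and 5.86, 5.79 and 10.5 CPM in sedanolide 1 to 3. Sedanolide 1 and 2 were below all controls, but sedanolide 3 was above control 3. The sedanolide mean was 0.66 of control (95% interval 0.42 to 1.03), with an edgeR adjusted p of 0.449. BAX, the pore-forming protein of the outer mitochondrial membrane, had 89.3, 83.1 and 79.0 CPM in controls 1 to 3 and 94.1, 94.2 and 89.1 CPM in sedanolide 1 to 3. Sedanolide 3 and control 1 were nearly equal, which was the single overlap of the groups. The fold of 1.10 for BAX had an interval from 0.93 to 1.31 and an edgeR adjusted p of 0.646, and on the log2(TPM + 1) scale the difference was -0.06. PERP, a membrane protein of desmosomes, AEN, an apoptosis-enhancing nuclease, and APAF1, the scaffold of the apoptosome, had log2 fold changes of -0.19, -0.10 and -0.27. TRIAP1, which restrains apoptosome formation, had 36.6 ± 1.12 CPM in control and 37.5 ± 4.27 CPM in sedanolide cells.

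Among death receptors and signalling genes, TP53INP1 had the largest difference of the whole list and also one of the widest spreads. This stress protein of the nucleus and of autophagosomes had 25.9, 38.3 and 16.7 CPM in controls 1 to 3 and 6.99, 11.8 and 22.1 CPM in sedanolide 1 to 3. Sedanolide 1 and 2 were below every control, and sedanolide 3 was above control 3. The sedanolide mean was 0.51 of control on the fitted scale (95% interval 0.24 to 1.06, log2 fold change -0.98, SE 0.45), with an edgeR adjusted p of 0.449. The log2 difference was -0.51 within the set of control 1, control 2 and sedanolide 3 and -0.87 within the other set. The first value rests on sedanolide 3 alone for its condition, and the second on control 3 alone. TNFRSF10B, the death receptor for TRAIL, had 183, 230 and 114 CPM in controls 1 to 3 and 91.9, 128 and 244 CPM in sedanolide 1 to 3, so that the highest and the lowest library were both from sedanolide cells (edgeR adjusted p 0.886). PHLDA3, which keeps AKT from the membrane, had 27.01 ± 4.87 and 23.1 ± 4.42 CPM, and FAS, the receptor of FAS ligand, had 7.70 ± 0.61 and 8.10 ± 0.66 CPM.

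The DNA repair genes lay near 0 or a little below it. XPC and DDB2, which recognize damage in nucleotide excision repair, had log2 fold changes of -0.14 (SE 0.11) and -0.23 (SE 0.18). RRM2B, the p53-inducible subunit of ribonucleotide reductase, had 46.4 ± 8.12 CPM in control and 36.3 ± 7.72 CPM in sedanolide cells, a log2 fold change of -0.36 with an edgeR adjusted p of 0.531. RPS27L, a ribosomal protein paralog, had -0.05, and POLH, the polymerase eta of translesion synthesis, had 0.08. Of the genes of metabolism and redox, FDXR, the mitochondrial reductase of ferredoxin, had 88.9, 58.1 and 126 CPM in controls 1 to 3 and 123, 99.4 and 60.5 CPM in sedanolide 1 to 3. Control 2 and sedanolide 3 were the low libraries, and the means of both groups were close (90.9 ± 33.9 and 94.3 ± 31.5 CPM). TP53I3, a quinone oxidoreductase, had 19.8 ± 4.76 and 15.5 ± 3.77 CPM, SESN1, a sestrin that restrains mTORC1, had 39.5 ± 5.14 and 35.0 ± 4.44 CPM, and TIGAR, which lowers fructose-2,6-bisphosphate, had 6.28 ± 1.11 and 7.21 ± 1.46 CPM.

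SUSD6, a membrane protein with a sushi domain, was the remaining member past 1.5-fold. It had 18.6, 25.9 and 10.0 CPM in controls 1 to 3 and 4.73, 6.91 and 16.2 CPM in sedanolide 1 to 3. As in TP53INP1 and BBC3, only sedanolide 3 reached into the range of the controls. The log2 fold change of SUSD6 was -0.97 (SE 0.51) with an edgeR adjusted p of 0.505. With 1 library left out, the log2 fold change ranged from -1.64 (without sedanolide 3) to -0.62 (without control 2) in SUSD6, from -1.51 to -0.64 (without the same libraries) in TP53INP1, and from -0.94 (without sedanolide 3) to -0.45 (without sedanolide 2) in BBC3. In all, 3 members (BBC3, TP53INP1 and SUSD6) were past 1.5-fold in either direction, all lower, and none of them had an unadjusted p under 0.05, beside 1256 of the 14104 features past 1.5-fold, of which 771 had such a p. The count of members that were lower at an unadjusted p under 0.05 rose from 0 to 8 without sedanolide 3 (CDKN1A, BBC3, TP53INP1, ZMAT3, RRM2B, BTG2, APAF1 and SUSD6) and to 3 without control 3 (BBC3, TP53INP1 and SUSD6). Over all features the share that was lower at such a p was 12.3% without sedanolide 3 and 6.79% without control 3. No member passed the FDR threshold in either case. All 8 members named were also higher in control 1, control 2 and sedanolide 3 than in the other libraries. Without sedanolide 3, the sedanolide libraries left stand only with control 3 on component 1. Without control 3, the controls left stand only on the other side. Treatment and split are then largely confounded.

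**Figure D3:**
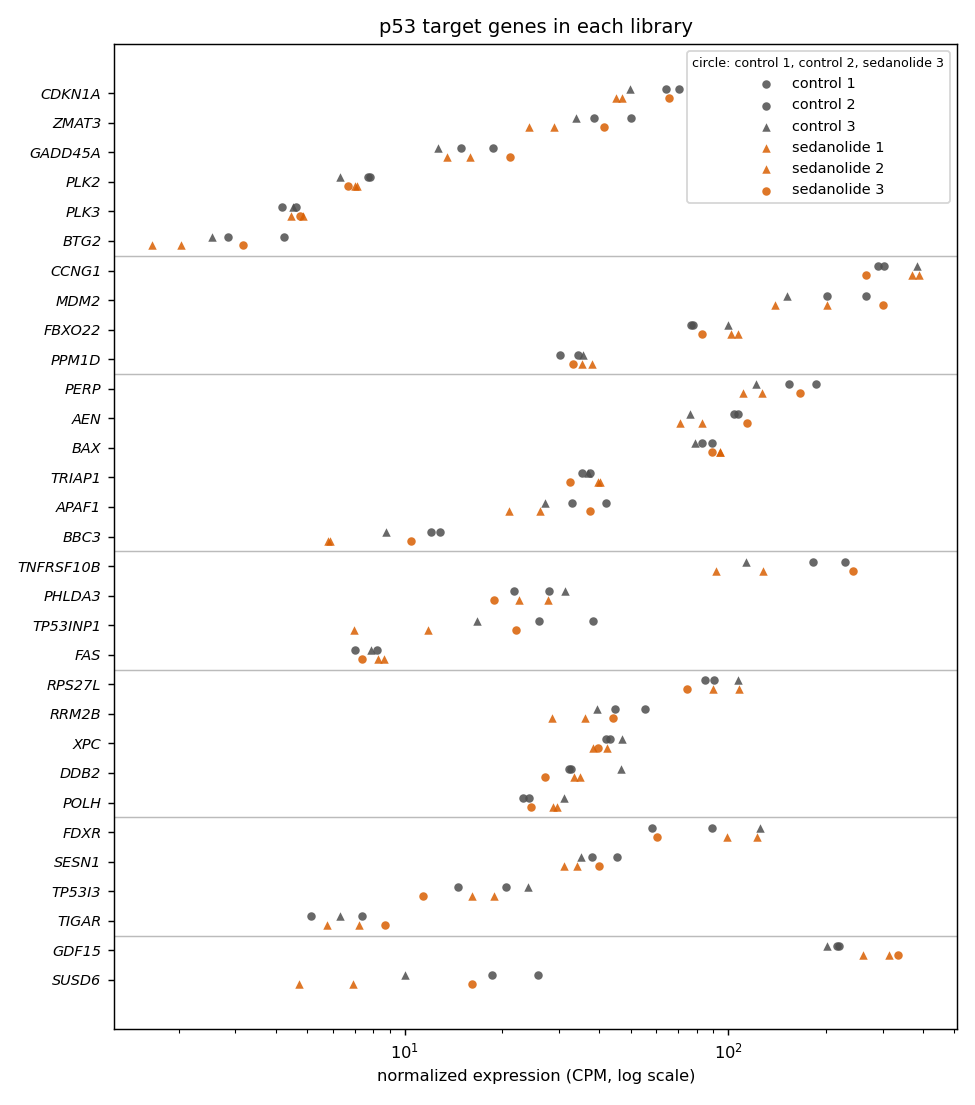
Normalized expression (CPM, log scale) of the 31 tested p53 targets in each library, with control in grey and sedanolide in orange and with grey lines between the roles, in the same order as in the plot of fold changes. Circles mark control 1, control 2 and sedanolide 3, and triangles mark control 3, sedanolide 1 and sedanolide 2: in genes such as MDM2 and SUSD6 the circles lie above the triangles, and in FDXR below them, whatever the condition.

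The variation of the members followed the split of the libraries more than the treatment. Of the 31 members, 13 were higher in each of control 1, control 2 and sedanolide 3 than in any of the other 3 libraries, beside 21.0% of all features. They were CDKN1A, MDM2, BBC3, TP53INP1, SESN1, ZMAT3, RRM2B, BTG2, TNFRSF10B, AEN, PERP, APAF1 and SUSD6. In 6 others, FDXR, DDB2, POLH, CCNG1, PPM1D and FBXO22, all 3 of these libraries were lower, beside 23.1% of all features. The largest of these differences, taken within conditions, were 1.31 (log2) in SUSD6, 1.09 in TP53INP1, 1.01 in TNFRSF10B and -0.84 in FDXR. The difference between the sets was larger in size than that between conditions in 26 of the 31 members, and in 8977 of all 14104 features. Its median size was 0.42 in the members and 0.28 over all features. As the sets were drawn from the same data, these values are a description without a test.

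By role, the set of 13 holds genes of arrest, apoptosis, DNA repair, redox and feedback, and the set of 6 holds genes of feedback, DNA repair and redox. Across the 31 members the difference between the sets had a Pearson correlation of -0.11 with the GC content of the transcript and of 0.24 with its log2 length, and over all features with these values (14078) the correlations were -0.07 and 0.24. The members share the 6 libraries in these correlations. The share of mitochondrial reads also differs between the sets, as given above, and its part in these differences was not tested. When the set was added as a term to the edgeR model, again 0 members were called. GDF15 then had a log2 fold change of 0.56 with an adjusted p of 0.0160, under 1.5-fold, and 6 members were lower at an unadjusted p under 0.05 (BBC3, TP53INP1, TP53I3, PHLDA3, DDB2 and SUSD6), beside 10.1% of all features in that fit. The adjusted p of these 6 ranged from 0.0761 to 0.194. As the sets were drawn from the same counts, the p-values of this fit, that of GDF15 included, are a description and not a test.

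**Figure D4:**
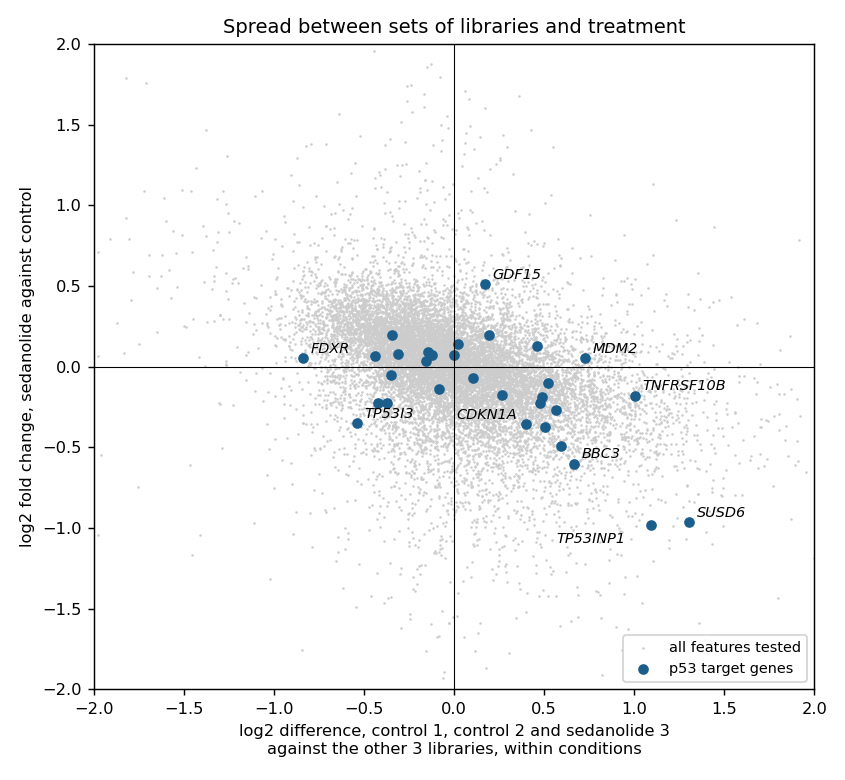
Log2 fold change of sedanolide against control (vertical) and log2 difference of control 1, control 2 and sedanolide 3 against the other 3 libraries, taken within conditions (horizontal), for the 31 p53 targets in blue and all features tested in grey. The axes end at 2 on the log2 scale, and 81 features lie beyond them. The members spread from -0.84 to 1.31 along the horizontal axis and from -0.98 to 0.51 along the vertical one.

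Some members share exon sequence with other genes, and the strand setting used for counting is not given in the sources used here, although the libraries were directional. Exons of FAS overlap those of ACTA2 on the opposite strand by 387 bases, and ACTA2 had 962% of the counts of FAS. TIGAR shares 1711 exon bases with a protein-coding gene on the same strand, which had 185% of its counts, so that the level of TIGAR is uncertain. POLH overlaps GTPBP2 on the opposite strand by 261 bases (85.5% of the counts of POLH), TP53INP1 overlaps NDUFAF6 by 225 bases (42.0%) and TNFRSF10B overlaps RHOBTB2 by 377 bases (12.1%). MDM2 shares 439 bases with a processed pseudogene on the same strand that had 3.67% of its counts.

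Upstream of the targets, MDM4, the relative of MDM2 that blocks p53 transactivation, had 10.2, 13.6 and 5.20 CPM in controls 1 to 3 and 4.95, 7.26 and 15.1 CPM in sedanolide 1 to 3. The highest and the lowest value were both in sedanolide libraries, and the groups overlapped. The means were 9.66 ± 4.22 CPM in control and 9.12 ± 5.35 CPM in sedanolide cells (log2 fold change -0.08, and 0.30 with a term for the split of the libraries).

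Of 28 regulators of p53, 27 were tested and 0 were called with edgeR or DESeq2, with a median log2 fold change of 0.08. At an unadjusted p under 0.05 with edgeR, 4 were higher and 0 were lower, beside 5.35% and 6.57% of all features tested. The highest and the lowest were TP73, a transcription factor that binds similar sites, with 0.51 and an edgeR adjusted p of 0.386, and TP53BP1, a reader of chromatin at DNA breaks, with -0.38 and 0.541. The other 3 with such a p, named after their values were seen, were the kinase ATR (0.31), the ubiquitin ligase RCHY1 (0.36) and the chaperone DAXX (0.35). None of the 27 was past 1.5-fold. All sedanolide libraries lay above all controls in 5 of the 27 and below them in 0, beside 8.69% and 9.66% of all features.

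Of 32 further p53 targets that are not in the list, 31 were tested and 0 were called with edgeR, with a median log2 fold change of 0.01. At an unadjusted p under 0.05 with edgeR, 1 was higher and 4 were lower, beside 5.35% and 6.57% of all features tested. All sedanolide libraries lay above all controls in 2 of the 31 and below them in 7, beside 8.69% and 9.66% of all features. LIF, a cytokine of the interleukin 6 family, had 8.97, 11.7 and 8.65 CPM in controls 1 to 3 and 13.8, 12.1 and 19.5 CPM in sedanolide 1 to 3. The sedanolide libraries were all above the controls, by little in sedanolide 2, and the log2 fold change was 0.63 with an edgeR adjusted p of 0.325. KITLG, the ligand of the receptor KIT, had 47.3, 57.6 and 41.5 CPM in controls 1 to 3 and 25.3, 32.1 and 33.6 CPM in sedanolide 1 to 3, so that the groups did not overlap (log2 fold change -0.69, adjusted p 0.181). With DESeq2, KITLG passed both thresholds (log2 fold change -0.69, adjusted p 0.0309) and LIF did not (adjusted p 0.219). With the term for the split in edgeR both passed, with adjusted p of 0.0241 for LIF and 0.0387 for KITLG. That term was drawn from the same counts, so these values are a description and not a test. Over all alternatives run, the adjusted p reached 0.921 for LIF and 0.788 for KITLG. The other 3 lower at an unadjusted p under 0.05, named after their values were seen, were PANK1 (-0.45), ACAD11 (-0.40) and SESN2 (-0.30).

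p53 also represses cell cycle genes, through p21 and the DREAM complex. All 22 such genes were tested. With edgeR 0 were called and 0 had an unadjusted p under 0.05, beside 5.35% higher and 6.57% lower of all features. With DESeq2 0 were called and 1 had such a p, beside 6.17% higher and 6.24% lower of all features. The median log2 fold change of the 22 genes was 0.14, with 16 above 0 and 6 below. All sedanolide libraries lay above all controls in 0 of the 22 and below them in 2, beside 8.69% and 9.66% of all features. E2F1, a driver of S phase entry, had the highest value, with 18.3 ± 2.71 CPM in control and 23.9 ± 3.74 CPM in sedanolide cells (log2 fold change 0.39, edgeR adjusted p 0.436). BIRC5, which encodes survivin, had the lowest, with 139 ± 4.37 and 126 ± 8.08 CPM (log2 fold change -0.14).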

How the data were processed

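RNA-seq libraries of 3 control samples and 3 samples exposed to sedanolide (100 μM, 24 h) were analysed. The authors captured mRNA, prepared directional libraries, used FastQC and Trimmomatic for checking and trimming, STAR for alignment (GRCh38) and RSEM for quantification (versions not given in the sources used here). The first deposited table holds expected counts without normalization. Values in the other deposited table, which covers part of the genes, are log2(TPM + 1), with the added 1 read from the values.

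Expected counts were rounded and analysed in R 4.3.3 with edgeR 4.0.16 (filterByExpr, TMM, robust quasi-likelihood test, condition as the only term). The p-values were adjusted by Benjamini-Hochberg over all 14104 features tested, and a call needed an FDR under 0.05 and more than a 1.5-fold difference, which are the thresholds the study applied with DESeq2. CPM are TMM-normalized and given as mean ± SD of 3 libraries. DESeq2 1.42.0 and limma 3.58.1 (on TPM, pseudocount 1 or 0.1) served as alternatives, with other size factors, all genes with at least 1 count, a term for the split of the libraries on component 1, the replicate block and each library left out. The edgeR procedure was tested on simulated data. Libraries within a condition differed by more than sampling noise, so none was a duplicate. Intervals and floors (3 counts for a count of 0) cover counting error or the spread of these libraries only.

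Symbols were matched to Ensembl IDs in GENCODE 44, where 61369 of 61541 IDs were found. The members and the other lists were chosen with earlier results of these data known. All members were named, and of the regulators, further targets and DREAM genes MDM4, genes past both thresholds and the highest and lowest of each list, with exceptions stated. A further gene of this rule is not reported here, and it stays in all fits and counts. Human promoter windows are from RefSeq.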

Additional observations from a re-analysis of the deposited data

How the results depend on the processing

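No p53 target was called in any of the alternatives run. Over all features, 51 were called higher and 44 lower with edgeR. These counts were 130 and 198 with DESeq2, 79 and 79 with all genes of at least 1 count, 151 and 230 with a term for the split of the libraries, 33 and 28 in the log2(TPM + 1) table, 33 and 35 with a pseudocount of 0.1, and 0 to 65 and 0 to 71 with 1 library left out. Both were 0 without control 1 and without sedanolide 2, where 1011 and 866 features had an unadjusted p under 0.05. With the replicate block both were 0 (772 features at an unadjusted p under 0.05), the median of the members was -0.12 and GDF15 had 0.50. Same-numbered libraries did not deviate alike (correlations of -0.13, -0.30 and -0.73), and none matched its own number best. Each of these pairs lies across the split of the libraries. The correlations therefore cannot tell whether same-numbered libraries were handled together.

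Members higher at an unadjusted p under 0.05 numbered 1 (GDF15) in the counts, in each case with 1 library left out as well, and 0 in both TPM settings. Those lower numbered 0 with edgeR, 1 with DESeq2 (TP53INP1), 1 with all genes of at least 1 count (BBC3), 6 with the term for the split, 3 and 3 in the TPM settings (BBC3, TP53I3 and PHLDA3), and 0 to 8 with 1 library left out. Over all features the share lower at such a p was 6.57% with edgeR, 6.24% with DESeq2, 3.92% with all genes of at least 1 count, 10.1% with the term for the split, 8.28% and 8.36% in the TPM settings, and 3.60% to 12.3% with 1 library left out. The median of the members was -0.10, ranged from -0.13 (without sedanolide 3) to -0.040 (without control 2) with 1 library left out, with -0.063 without sedanolide 2, and was -0.072 with the term for the split. It was -0.20 and -0.21 in the TPM settings, where the median of all features was -0.07 and -0.08. The cause was not tested.

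Of 488 pairs of a reported gene and an alternative, 41 turned the sign of the log2 fold change, all in genes whose 95% interval held 0. With the term for the split these were FDXR (-0.23), POLH (-0.019), CCNG1 (-0.086), TNFRSF10B (0.10), AEN (0.061), TRIAP1 (-0.024) and MDM4 (0.30). In the log2(TPM + 1) table they were BAX (-0.0597), FDXR (-0.0546), POLH (-0.0122), PLK3 (-0.0308), CCNG1 (-0.0857), PPM1D (-0.0265), TIGAR (-0.14) and TRIAP1 (-0.0821), and with a pseudocount of 0.1 they were BAX (-0.0600), FDXR (-0.0552), POLH (-0.0134), PLK3 (-0.0384), CCNG1 (-0.0860), PPM1D (-0.0280), TIGAR (-0.12) and TRIAP1 (-0.0834). With 1 library left out the range was -0.28 to 0.28 for MDM2, -0.19 to 0.36 for FDXR, -0.0033 to 0.22 for POLH, -0.073 to 0.29 for GADD45A, -0.037 to 0.22 for CCNG1, -0.67 to 0.085 for TNFRSF10B, -0.32 to 0.038 for AEN, -0.018 to 0.13 for TRIAP1, -0.20 to 0.069 for RPS27L and -0.66 to 0.25 for MDM4. With 3 libraries per group and a split that crosses the conditions, differences under 1.5-fold were not resolved for most members. The 95% interval left out 0 in 1 of 31 members, GDF15, and in 1681 of all 14104 features. It left out both a 1.5-fold rise and a 1.5-fold fall in 12 of 31 members and in 5550 of all features.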
